A study of Mus musculus with 6 samples.

Results

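Malat1 and Neat1 are nuclear long noncoding RNAs transcribed from neighbouring genes on the minus strand of mouse chromosome 19. Their N6-methyladenosine (m6A) was described here at 224 of the 567667 positions listed for this series, 112 in each RNA. Members were all listed positions within a fixed window around each gene in the GRCm39 build, chr19:5845718-5852707 for Malat1 (6990 bases) and chr19:5874701-5895601 for Neat1 (20901 bases), whatever their m6A level. Positions are called below by their base counted from 1 at the 5′ edge of the window, which lies at the higher coordinate. The windows are a little longer than the annotated transcripts (6983 bases for Malat1 and 20771 for long Neat1 in GENCODE M21), so a base number need not be the distance from the transcript start.

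The 6 samples were nanopore direct RNA libraries of cultured hepatocellular carcinoma-initiating cells (HCICs), 3 with wild-type Mthfd1l (MTH-WT) and 3 with Mthfd1l knocked out (MTH-D), numbered 1 to 3 in each group. Mthfd1l encodes a mitochondrial enzyme of one-carbon metabolism, the pathway that feeds the methyl donor of RNA methylation, and the comparison addresses whether m6A depends on it. HCICs came from livers of male mice given the carcinogen diethylnitrosamine (DEN) as pups, which both groups share. The study made its MTH-D lines from 1 line of control mice (CTL) and from lines of double knock-in (DKI) mice, whose Mdm2 and Mdmx alleles no longer pass certain stress signals on to p53. Lentiviral Cas9 with guide RNAs against Mthfd1l was used for MTH-D cells and the vector without guide for MTH-WT cells, followed by growth from single cells, so a line is a clone. In the study's text, the deletion of the MTH-D line HCIC-2 was only a small one, and HCIC-1 and HCIC-3 were the lines used. The labels tie no sample number to a line, mouse or genotype at Mdm2 and Mdmx, so all 6 samples entered the values below. All carry the same batch label. The m6A table holds no expression values, so neither the loss of Mthfd1l nor the identity of the cells was checked here. The study's lines came from separate mice, and it describes the MTH-WT and MTH-D cells used for m6A as paired. Since no label says which line, mouse or culture a sample came from, p-values measure only the spread between these samples.

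Malat1 gathers in nuclear speckles, bodies rich in splicing factors, and is among the most abundant nuclear transcripts of many cell types. Neat1 has a short polyadenylated form and a long form that start at the same place, and the long form is the scaffold of the nuclear bodies called paraspeckles. The 3′ ends of Malat1 and of long Neat1 are cut by RNase P and end in a triple helix in place of a classical poly(A) tail. m6A is written mostly by the METTL3 and METTL14 complex in the motif DRACH, which reads A, G or U, then A or G, then the methylated A, then C, then A, C or U. In direct RNA sequencing native RNA molecules enter a pore with the 3′ end first, and modified adenosines are called from the electrical current.

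Each value is the share of reads called m6A at a position, deposited as a fraction and given here in percent. The fractions come without coverage or numbers of modified reads, so their depth is unknown and counting intervals could not be given. A share as small as 0.04%, at Malat1 base 6554 in MTH-D sample 1, can only come from many reads. Shares such as 50% at Neat1 base 20241 or 95.2% at Malat1 base 1213, both in MTH-D sample 2, can come from few. Depth may thus have differed between positions, and the high sites may rest on few reads. The table has no strand column, so an antisense transcript could not be told apart from the RNA. At 60.7% of the Malat1 positions, 62.5% of the Neat1 positions and 63.6% of all listed positions, at least 1 of the 6 samples was at exactly 0. None of the 567667 listed positions was at 0 in all 6 samples. A base without any m6A call may therefore be missing from the list even where reads covered it. Densities and means below are over listed positions only, not over all candidate sites.

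The positions were spread differently over the RNAs. In Malat1 they ran from base 137 to base 6976, at 16.0 per kb, and the longest stretch without a listed position was 265 bases. In Neat1 they ran from base 242 to base 20732, at 5.36 per kb, but none lay between bases 7391 and 19515, a gap of 12124 bases. The listed positions of Neat1 thus formed a 5′ block of 91 and a 3′ block of 21. Whether the gap lacked reads or only m6A calls cannot be told from the list. The 5′ block holds the region of the short form, whose annotated transcript spans 3170 bases in GENCODE M21, and the 3′ block lies near the end of the long form.

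As background on sequence, the annotated Malat1 transcript of GENCODE M21 holds 122 DRACH motifs on its own strand, or 17.5 per kb. The long Neat1 transcript holds 403, or 19.4 per kb, and the short one 61, or 20.3 per kb. Of 9536 annotated lncRNA transcripts of at least 1000 bases, 85.1% were at or above the density of Malat1 and 70.3% at or above that of long Neat1. DRACH motifs therefore occurred in both RNAs at a lower density than the median of these transcripts, 21.5 per kb. The annotation is of GRCm38, the m6A positions are of GRCm39, and the motif at each position was not read.

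Most listed positions of both RNAs carried little m6A. Averaged over the 6 samples, 59 of the 112 Malat1 positions (52.7%) and 58 of the 112 Neat1 positions (51.8%) were under 1%, against 51.1% of all listed positions. At 10% or more were 7 positions of Malat1 (6.25%) and 14 of Neat1 (12.5%), against 14.3% of all listed positions. At 50% or more were 4 of Malat1 (3.57%) and 3 of Neat1 (2.68%), against 4.37%. No Malat1 position averaged between 20 and 50%, a range that held 9 of the Neat1 positions. The few positions at 10% or more gave 67.6% of the m6A summed over Malat1 and 77.6% of that summed over Neat1, against 81.3% of that summed over all listed positions.

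In Malat1 the high sites stood close together near the 5′ end. The 4 positions at 50% or more lay at bases 1119, 1213, 1255 and 1395, within 277 bases, and held 59.3% of the RNA's summed m6A. The first of them, base 1119 at chr19:5851589, stood at 66.7%, 80.8% and 52.0% in MTH-WT samples 1, 2 and 3, and at 76.5%, 61.9% and 82.6% in MTH-D samples 1, 2 and 3. Base 1213 at chr19:5851495 stood at 68.2%, 84.6% and 70.4% in MTH-WT and at 86.1%, 95.2% and 73.9% in MTH-D samples, in the same order. At base 1119 MTH-D sample 2 was below MTH-WT sample 2, while at base 1213 MTH-D sample 2 was the highest of all samples, and the groups overlapped at both.

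The other pair of high sites also stood at 48% or more in every sample. Base 1255 at chr19:5851453 had the highest mean of either RNA, 80.1%, with 80.0%, 85.2% and 73.3% in MTH-WT and 83.1%, 71.4% and 87.5% in MTH-D samples. Of all listed positions, 1.71% averaged as much or more. Base 1395 at chr19:5851313 stood at 54.6%, 74.1% and 52.0% in MTH-WT and at 82.7%, 48.0% and 74.1% in MTH-D samples. This was the widest spread of the 4 sites, and its lowest value, like its highest, came from an MTH-D sample.

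**Figure D1:**
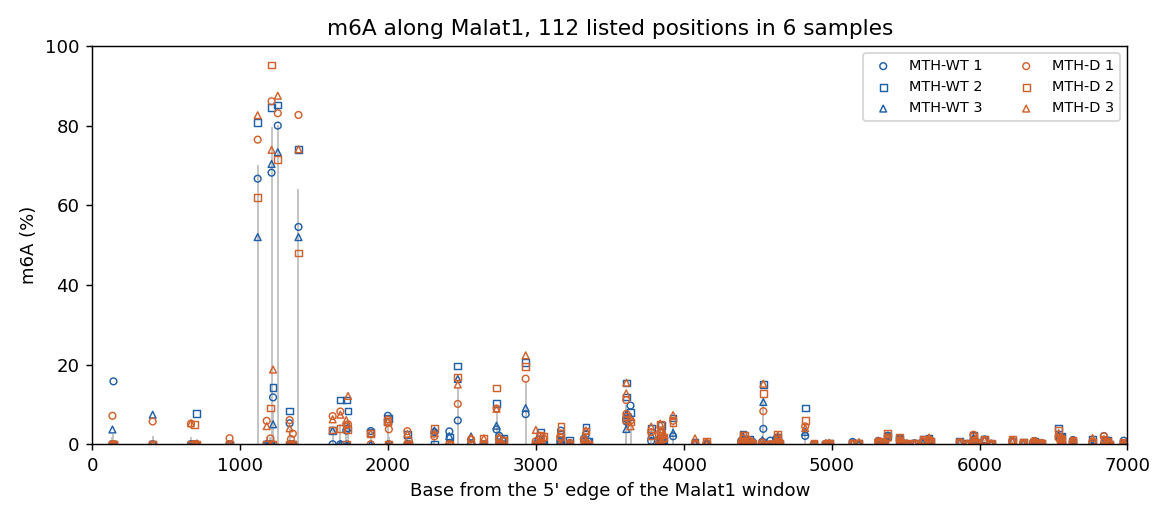
m6A in percent (y axis) at the 112 listed positions of Malat1 against the base counted from the 5′ edge of its window (x axis). Each symbol is 1 sample, blue for MTH-WT and red for MTH-D, and a grey line reaches the mean of the 6 samples. The 4 sites at bases 1119 to 1395 stand at 64.2 to 80.1% on average, all other positions average under 20%, and from base 5001 on none averages above 2.66%.

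Away from these sites Malat1 m6A was low. The 6 other positions listed between bases 1001 and 1500 averaged 2.73%, so the high levels belonged to single positions and not to the whole stretch. Only 3 further positions averaged 10% or more, base 2472 at 14%, base 2931 at 15.9% and base 4538 at 11%. Adjacent bases 3611 and 3612 followed at 9.90% and 8.57%, and base 2734 at 8.41%. Neighbouring adenosines cannot both be the methylated A of DRACH, since that A is followed by C. The last part of the RNA, from base 5001, held 39 listed positions with a mean of 0.633%. Each of the 6 samples showed this low end, with means between 0.518% and 0.708%.

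In Neat1 the high sites formed a broader group, also near the 5′ end. Of the 14 positions at 10% or more, 12 lay between bases 1070 and 2975 and held 70.9% of the summed m6A of Neat1. The 8 of them between bases 1548 and 1885, within 338 bases, held 55.4%. Base 1581 at chr19:5894021 had the highest mean of Neat1, 60.1%, with 42.5%, 69.1% and 60.1% in MTH-WT samples 1, 2 and 3 and 55.9%, 66.8% and 66.2% in MTH-D samples 1, 2 and 3. MTH-WT sample 1 was the lowest and MTH-WT sample 2 the highest, so the MTH-D samples lay inside the range of the MTH-WT samples.

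Neighbouring bases 1701 and 1700 followed at 57.1% and 50.3%. Base 1701 stood at 41.8%, 69.1% and 58.7% in MTH-WT and at 51.9%, 66.4% and 54.8% in MTH-D samples, and base 1700 at 32.4%, 60.9% and 50.7% against 50.5%, 58.7% and 48.3%. In every sample base 1701 was the higher of the pair. Adjacent positions that both reach 10% were uncommon in the table, with 840 of 81446 positions at 10% or more (1.03%) having such a neighbour. Whether reads carried the modification at one or both of these bases was not tested.

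The remaining sites of the group were intermediate. Base 1885 averaged 47.6%, base 1548 averaged 45.5% and base 1739 averaged 38.7%. Base 2151 averaged 34.8%, base 2975 averaged 25.4%, base 1622 averaged 23.5% and base 1694 averaged 23.4%. The first 1000 bases held 21 listed positions, none at 10% or more, with a mean of 0.697%. Past base 3000, the 5′ block held 32 positions with a mean of 1.12% and a maximum of 6.42%. The high sites of the 5′ block thus all fell within a distance from the 5′ edge shorter than the annotated span of short Neat1, and reads of the short and the long form were not told apart there.

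**Figure D2:**
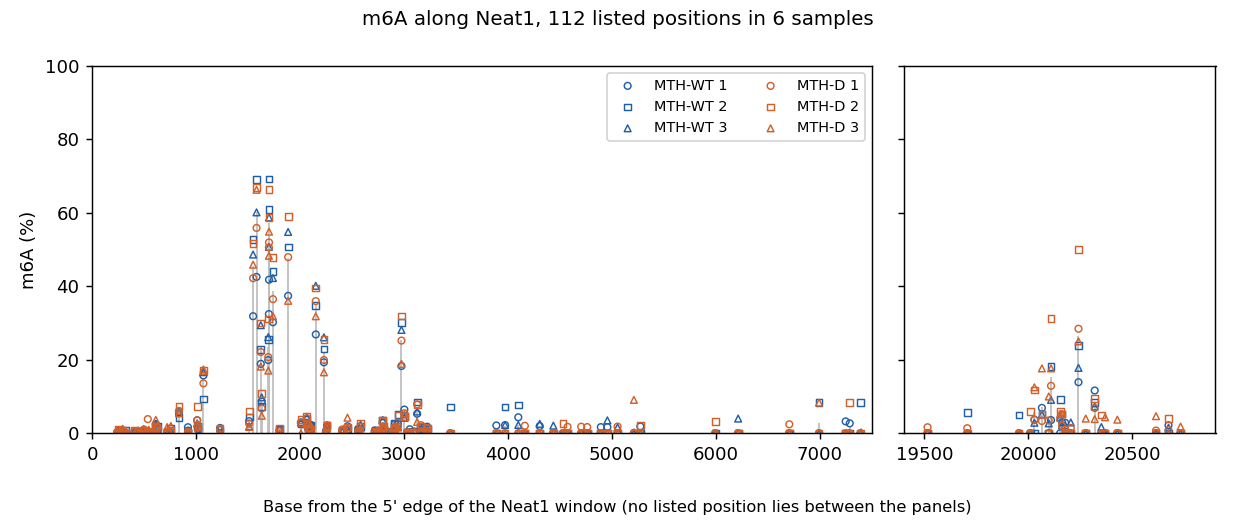
m6A in percent (y axis) at the 112 listed positions of Neat1 against the base counted from the 5′ edge of its window (x axis, broken between bases 7391 and 19515, where no position is listed). Each symbol is 1 sample, blue for MTH-WT and red for MTH-D, and a grey line reaches the mean of the 6 samples. The highest group lies at bases 1548 to 1885, and the 3′ block reaches 26.5% on average at base 20241.

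The 3′ block, which lies outside the short form, was lower, with a mean over its 21 positions of 4.04%. Its highest site was base 20241 at chr19:5875361, with a mean of 26.5%. This site stood at 13.9%, 23.8% and 17.8% in MTH-WT and at 28.4%, 50% and 25% in MTH-D samples, so every MTH-D value lay above every MTH-WT value. Base 20109 averaged 15.4%, with 3.57%, 18.2% and 9.09% in MTH-WT and 12.9%, 31.2% and 17.6% in MTH-D samples. There MTH-D exceeded MTH-WT within each sample number, and the groups overlapped.

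Within their libraries the listed positions of both RNAs averaged less m6A than those of the rest of the table. These means depend on which bases are listed. The 39 Malat1 positions from base 5001, with a mean of 0.633%, enter that of Malat1. Listing may vary with depth, which is unknown, so the means do not rank the methylation of whole RNAs. Over its 112 positions Malat1 averaged 3.81%, 5.26% and 3.41% in MTH-WT samples 1, 2 and 3 and 4.83%, 4.22% and 5.03% in MTH-D samples 1, 2 and 3. Neat1 averaged 4.31%, 6.14% and 5.64% in MTH-WT and 5.22%, 6.84% and 5.32% in MTH-D samples. The 567443 positions outside both RNAs averaged 6.84%, 7.45% and 6.57% in MTH-WT and 6.51%, 7.69% and 6.34% in MTH-D samples. Malat1 was the lowest, Neat1 the middle and the rest of the table the highest in 6 of 6 samples. Medians lay under 1% in every sample for both RNAs and for the rest of the table, and by median neither RNA was lower in every sample. In MTH-WT sample 2 the median was 0.745% in Malat1 against 0.71% in the rest. In MTH-WT sample 3 it was 0.92% in Neat1 against 0.71%.

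Between MTH-WT and MTH-D, the mean of Malat1 was 4.16% ± 0.969 (SD, n = 3) against 4.69% ± 0.423 (SD, n = 3). MTH-D was thus higher by 0.533 percentage points, less than the MTH-WT SD (p = 0.5 by a two-sided exact permutation test, in which 0.1 is the smallest p that 3 against 3 samples give). Within sample numbers 1 and 3, MTH-D was higher by 1.01 and 1.62 points, and within number 2 the difference was -1.04 points. The groups overlapped, with the highest and the lowest value both in MTH-WT. The size of the difference rested on single libraries, at 0.159 points without MTH-WT sample 3 and 1.08 points without MTH-WT sample 2, and over sample numbers 1 and 2 alone it was -0.0113 points.

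For Neat1 the mean was 5.36% ± 0.949 (SD, n = 3) against 5.79% ± 0.911 (SD, n = 3). MTH-D was higher by 0.432 points, less than either SD (p = 0.6 by the same exact permutation test). Its direction rested on single libraries, since it was -0.0959 points without MTH-WT sample 1 and -0.0931 points without MTH-D sample 2. Within sample numbers 1 and 2, MTH-D was higher by 0.913 and 0.7 points, and within number 3 the difference was -0.317 points. Sample number 2 thus went against the other numbers in Malat1, and number 3 in Neat1. The rest of the table differed by -0.113 points (p = 0.8, exact permutation test). Taken relative to the rest of the table in the same library, Malat1 was higher in MTH-D by 0.645 points and Neat1 by 0.544 points (exact permutation tests, p = 0.4 for each).

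**Figure D3:**
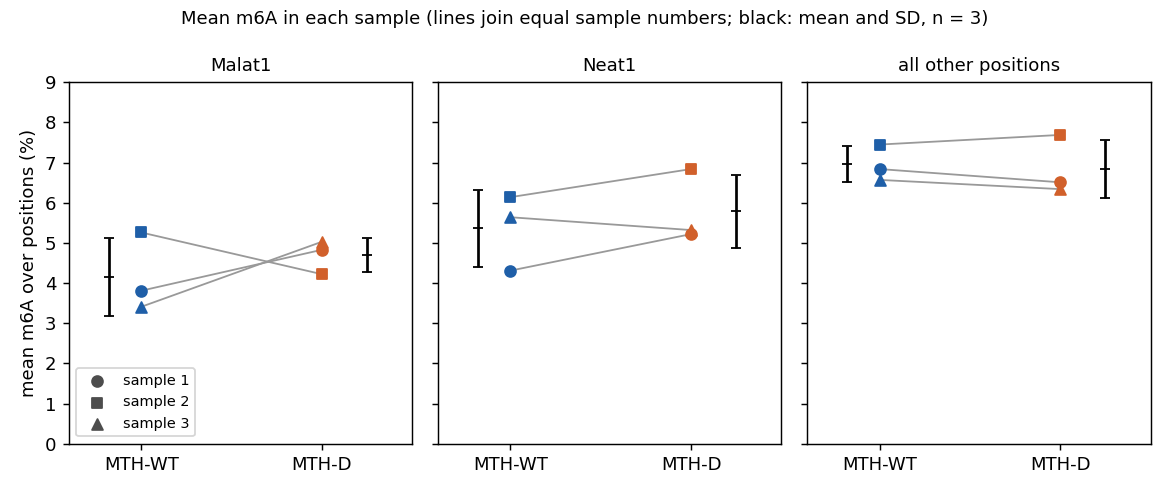
Mean m6A in percent (y axis) over the listed positions of Malat1, of Neat1 and of the rest of the table (panels) in MTH-WT and MTH-D samples. Symbols are samples, grey lines join samples of the same number, and black bars give the mean and SD of 3 samples; the groups overlap in all panels, and the lines of Malat1 cross.

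To test single positions, percents were turned into log2 odds and fitted with limma over the whole table, with Benjamini-Hochberg adjustment. No position of Malat1 or Neat1 passed an adjusted p of 0.05 in limma, as was the case for 0% of the 567667 positions tested. The lowest limma adjusted p was 0.245 in Malat1 and 0.283 in Neat1. At an unadjusted p under 0.05 were 1 Malat1 position lower and 2 higher in MTH-D, and 2 Neat1 positions lower and 2 higher, each of 112. Over all positions tested, 1.55% were lower and 1.67% higher at that threshold, so the counts in both RNAs were near the background.

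None of these 7 positions averaged 10% or more, and they are named here after their values were seen. In Malat1, base 2415 stood at 3.23%, 1.82% and 2.04% in MTH-WT samples and at 0 in all MTH-D samples (limma adjusted p = 0.245). Base 3841 stood at 1.16%, 1.57% and 0.850% in MTH-WT and at 2.96%, 4.96% and 5.16% in MTH-D samples (limma adjusted p = 0.716). The groups did not overlap at either base, and the differences were of a few points. Both bases were picked by p-values from these same samples, which favours groups that do not overlap, so this adds no support. The other Malat1 position, base 668, was at 0 in all MTH-WT samples and in MTH-D sample 2.

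In Neat1, base 4099 stood at 4.35%, 7.69% and 2.27% in MTH-WT samples and at 0 in all MTH-D samples (limma adjusted p = 0.283). Base 3972 stood at 2.22%, 7.14% and 2.22% in MTH-WT and was likewise at 0 in all MTH-D samples (limma adjusted p = 0.483). Base 294 was at 0 in all MTH-WT samples and averaged 0.940% in MTH-D, and base 20029 averaged 2.19% in MTH-WT and 9.31% in MTH-D. With the depth unknown, a value of 0 at such positions cannot be told apart from a small share of modified reads. No listed position was at 0 in all 6 samples, so a base at 0 throughout 1 group was listed only through the other group. This holds for Malat1 bases 668 and 2415 and for Neat1 bases 294, 3972 and 4099. Their contrasts are therefore partly set by the listing.

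At the sites averaging 10% or more, the group means of MTH-D were between 2.12 points lower and 16.0 points higher than those of MTH-WT. Of the 7 Malat1 positions averaging 10% or more, 4 were at least 5 points higher in MTH-D and 0 at least 5 points lower, with a median difference of 7.08 points. Of the 14 such Neat1 positions, 3 were higher and 0 lower, with a median difference of 1.52 points. Among all 81446 listed positions of that level, 9.28% were higher and 15.2% lower by 5 points or more, and the median difference was -0.687 points. Spread within groups was larger in both RNAs. Its median SD was 7.22 points in Malat1 and 8.18 in Neat1, against 5.79 over all such positions. At 50% or more it was 11.3 and 10.9 points, against 6.22. The shares therefore compare sites of unlike spread. Single libraries moved the counts. The 4 higher Malat1 sites became 2 without MTH-WT sample 3, and the 3 higher Neat1 sites became 1 without MTH-D sample 2 and 6 without MTH-WT sample 2. The 0 lower Neat1 sites became 2 without MTH-WT sample 1 and 1 without MTH-D sample 2. With a sample left out, the share over all listed positions was not computed. These counts carry no test, and positions of 1 RNA share their reads and are not replicates.

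The 4 Malat1 sites that were higher by 5 points or more were base 1213 (10.7 points), base 1395 (8.04), base 1119 (7.18) and base 2931 (7.08). Base 2931 stood at 7.55%, 20.5% and 9.09% in MTH-WT and at 16.5%, 19.6% and 22.3% in MTH-D samples. Base 2472 had a difference of -0.00333 points and was the only Malat1 site of this level with a lower group mean in MTH-D. All 7 sites were higher in MTH-D within sample number 1 and 6 of 7 within number 3. Within number 2 only 1 of 7, base 1213, was higher. Such counts were not made over all listed positions. The mean of all positions outside both RNAs differed by -0.338, 0.231 and -0.231 points within numbers 1, 2 and 3. Averaged over the 4 highest sites, MTH-WT samples stood at 67.3%, 81.2% and 61.9% and MTH-D samples at 82.1%, 69.1% and 79.5%. Sample number 2 thus held the highest MTH-WT value and the lowest MTH-D value. At base 1213 the difference was as large as the SD of the MTH-D samples (10.7 points) and above that of the MTH-WT samples (8.93 points), with p = 0.2 in an exact permutation test. At the other 3 of the 4 highest sites both groups had an SD above the difference.

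**Figure D4:**
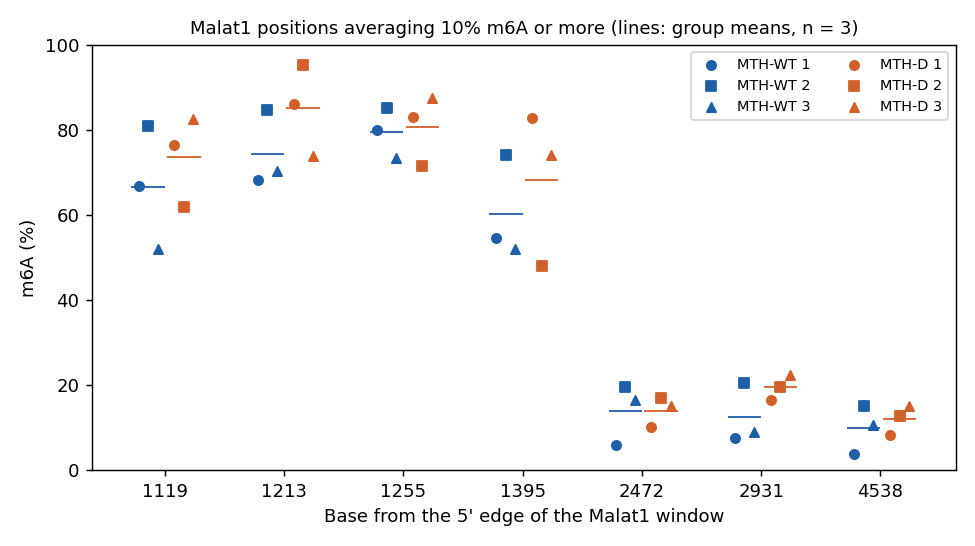
m6A in percent (y axis) at the 7 Malat1 positions averaging 10% or more, named by their base from the 5′ edge (x axis). Symbols are samples, blue for MTH-WT and red for MTH-D, and short lines are group means of 3 samples; MTH-D means are higher at 6 of 7 positions, and the groups overlap at each.

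In Neat1 the 3 sites that were higher by 5 points or more were base 20241 (16.0 points), base 20109 (10.3) and base 1581 (5.72). Base 20241 was the single site at 10% or more in either RNA where the groups did not overlap, 1 of 14 in Neat1 and 0 of 7 in Malat1, with MTH-D above. Among all listed positions of that level, 2.07% had all MTH-D samples above all MTH-WT samples and 3.38% had them below. Its difference gave the smallest p that 3 samples against 3 allow (two-sided exact permutation test, p = 0.1) and a limma adjusted p of 0.939. The largest declines of group means were smaller, -2.12 points at base 2229, -0.92 at base 1694 and -0.277 at base 1622.

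Sample numbers also differed along Neat1. Within number 1, MTH-D was higher at 13 of the 14 sites, within number 2 at 10 and within number 3 at 4. No such counts were made over all listed positions. MTH-WT sample 1 was the lowest of the 6 samples at 9 of the 14 sites, and its mean over all listed positions outside both RNAs, 6.84%, was the middle one of the MTH-WT samples. At the 3 sites averaging 50% or more the mean was 38.9% in this sample, 66.4% and 56.5% in MTH-WT samples 2 and 3, and 52.8%, 64.0% and 56.5% in MTH-D samples.

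**Figure D5:**
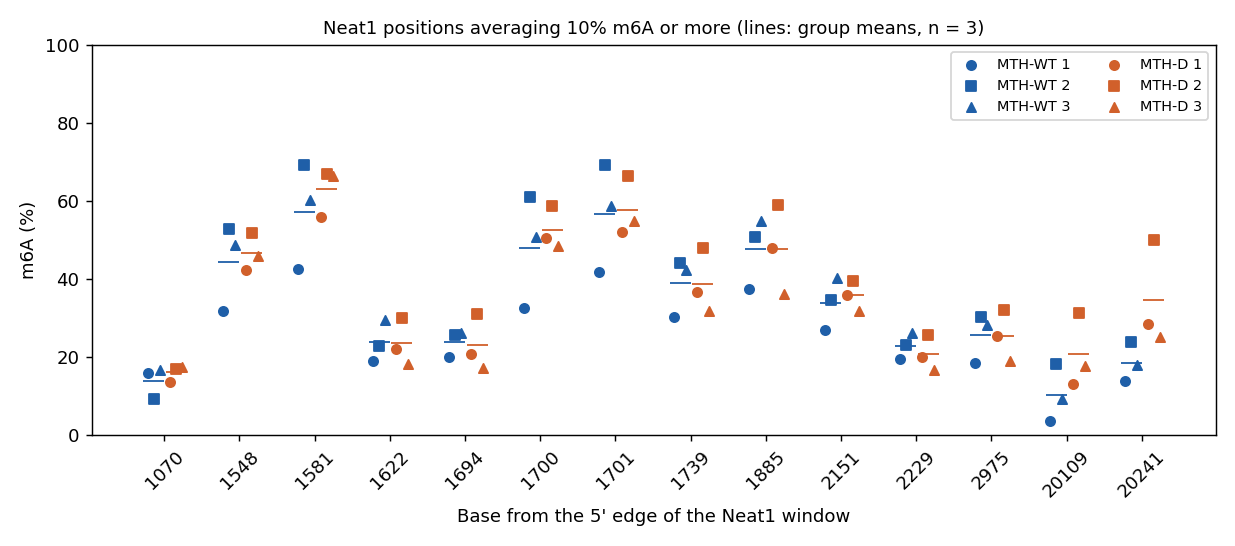
m6A in percent (y axis) at the 14 Neat1 positions averaging 10% or more, named by their base from the 5′ edge (x axis). Symbols are samples, blue for MTH-WT and red for MTH-D, and short lines are group means of 3 samples; only at base 20241 do all MTH-D samples lie above all MTH-WT samples.

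The 5′ and 3′ blocks of Neat1, separated after the values were seen, had different group differences. The 3′ block averaged 2.27%, 3.83% and 2.84% in MTH-WT and 3.41%, 6.37% and 5.51% in MTH-D samples. MTH-D was higher within each sample number, by 1.14, 2.54 and 2.67 points, although MTH-WT sample 2 lay above MTH-D sample 1 (means 2.12 points apart, p = 0.2 in a two-sided exact permutation test). The 5′ block averaged 4.78%, 6.68% and 6.28% in MTH-WT and 5.64%, 6.95% and 5.28% in MTH-D samples, so that MTH-D was higher by 0.0428 points (p = 1.0, exact permutation test). The difference between the blocks was not tested. The 3′ block rests on few positions, of which 5 of 21 had a value above 0 in every sample.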

How the data were processed

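The deposited values are m6A fractions between 0 and 1, in 1 table for 6 nanopore direct RNA libraries, each from 1000 ng of total RNA run for up to 72 h. The submitters' processing notes name minimap2 2.26, SAMtools and GRCm39. The modification caller and any coverage filter are not given in the sources used here, and a caller that assigns reads to neighbouring bases, or a coverage filter, would change single values. Without coverage, no read minimum, interval or count test could be applied. Positions were counted from 0, as checked on chromosome 4 below 59 Mb. There 93.8% of 9029 positions fell on an exonic DRACH adenosine when counted from 0 and 0.875% when counted from 1. The exons and sequences of this check were of GENCODE M21 (GRCm38), and it was not made on chromosome 19. The m6A positions are printed counted from 1.

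Fractions were converted to percent in Python 3.11.15 with pandas 2.3.3 and numpy 2.4.6. Means over positions, unweighted, were compared by two-sided exact permutation tests. Single positions were fitted in R 4.3.3 with limma 3.58.1 on log2 odds, after adding 1 percentage point to both shares, over all 567667 rows with Benjamini-Hochberg adjustment at 0.05. The fit was also run on simulated normal log odds, which are unlike fractions of unknown depth. That run does not show which differences could be found here. Named positions were the 10 of highest mean in each RNA, the 3 largest falls and 3 largest rises among those averaging 10% or more, and any past the adjusted threshold; others are named as chosen after their values were seen. The RNAs and lists were chosen with earlier results of these data known. The main tests were unpaired. Equal sample numbers were treated as pairs only in the differences within numbers and in the replicate block alternative. The deviations of MTH-WT and MTH-D samples of equal number correlated at 0.164, 0.223 and 0.133 over 81446 positions averaging 10% or more. Correlations between unequal numbers were not computed, so these weak values do not establish a pairing. Alternatives are given in the closing section. Sequences at the sites and other genes were not analysed here, for want of a GRCm39 genome and annotation.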

Additional observations from a re-analysis of the deposited data

How the results depend on the processing

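Depth is unknown, so it limits each value at a single position to an unstated degree, and 3 samples against 3 cannot reach p = 0.05 in an exact permutation test. The difference in mean m6A of Malat1 (0.533 points) kept its direction in 14 of 15 alternatives, and that of Neat1 (0.432 points) in 14 of 17. These tallies include the replicate block, which could not reverse, and alternatives that share samples and positions, so they do not measure stability. Leaving out 1 sample at a time gave 0.159 to 1.08 points for Malat1 and -0.0959 to 0.823 points for Neat1. Neat1 reversed without MTH-WT sample 1 (-0.0959), without MTH-D sample 2 (-0.0931) and with the median over positions (-0.09). Malat1 reversed over samples numbered 1 and 2 alone (-0.0113), an alternative chosen after seeing the data, as were samples numbered 2 and 3 alone, the stretches and the Neat1 blocks. Over samples numbered 1 and 3 the differences were 1.32 and 0.298 points, over positions averaging 10% or more 5.2 and 2.88 points, and over positions without values of 0 or 100% 1.13 and 1.06 points. The causes were not tested.

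With the replicate block the mean differences of Malat1 and Neat1 were 0.533 and 0.432 points, equal by arithmetic to those without it (exact sign-flip permutation tests, p = 0.75 and p = 0.5, where 3 pairs cannot go below 0.25), and limma called 0 positions in each RNA. The block was run for these results alone, and the pairing changed no call among them. In limma 0 positions passed under each of 11 alternatives for each RNA, and 0 in the whole table, so these counts are not particular to either RNA. The lowest limma adjusted p lay between 0.089 and 1 for Malat1 and between 0.127 and 1 for Neat1. The 4 Malat1 sites higher by 5 points became 1 at 10 points, and 2 to 5 when 1 sample was left out, with 2 without MTH-WT sample 3. For Neat1 the 3 higher sites became 1 (without MTH-D sample 2) to 6 (without MTH-WT sample 2), and the 0 lower sites 0 to 2, with 2 without MTH-WT sample 1 and 1 without MTH-D sample 2. For these altered site counts, shares over all listed positions were not computed. Positions on DRACH, in annotated exons or above a coverage minimum, and the other genes listed for comparison, were not run.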
